A study of Mus musculus with 4 samples.

Results

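The 33 genes described here are targets and partners of ATF4, the transcription factor of the integrated stress response. They were taken by symbol from a table of 31247 mouse genes, and all 33 were found once each. They cover serine, asparagine and proline synthesis, amino acid transport, tRNA charging and regulators of the stress response. Their RNA was measured in lung cells of mice at postnatal day 7. The cells were sorted for a Pdgfrb-GFP reporter and are named myofibroblasts in the labels. One genotype was a conditional knockout of Dnmt1 (CKO, with the labelled alleles PDGFRb-GFP, Tbx4-rtTA and Tet-O-Cre, and Dnmt1-D/D) with 2 libraries, and the control was labelled Wild type PDGFRb-GFP (WT), also with 2. Dnmt1 encodes the enzyme that copies DNA methylation onto new strands. In the CKO, Tbx4, a gene of lung mesenchyme, drives a tetracycline transactivator that switches on Cre, so deletion is limited to cells with that driver. The sources used here do not state the dosing or whether WT animals carried the transactivator or Cre. All animals carried 1 reporter copy, per the labels, and 300000 to 350000 cells were sorted from each sample.

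ATF4 is made mainly under stress. When a kinase such as PERK, GCN2, PKR or HRI phosphorylates the initiation factor eIF2, most translation slows while the Atf4 mRNA is translated better. ATF4 protein, often paired with a C/EBP factor, then switches on genes that bring in, make and charge amino acids, together with feedback genes that end the response. In fibroblasts these genes also serve the supply of glycine and proline, which collagen uses in quantity. The counts describe RNA only, so neither ATF4 protein nor eIF2 phosphorylation was measured.

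Libraries carry a genotype and a letter here, because the count columns hold no replicate number. Each held 23071657 to 26420648 counted reads. WT B stood apart in the number of genes with at least 1 read, 27643, against 21883 to 22532 in the other 3 libraries. Dnmt1 stood at 78.1 CPM (reads scaled to equal library size) in CKO A and 29.5 CPM in CKO B, against 144 CPM in WT A and 115 CPM in WT B. Both CKO libraries were lower, but edgeR did not call the difference (log2 change -1.27 ± 0.57 SE, adjusted p = 0.310). The names of the columns of CKO A, CKO B and WT B share a number that WT A does not carry, and its meaning is unknown. Within that number only WT B serves as control, which is the fit without WT A. The Y-linked gene Ddx3y was at 94.9 CPM in CKO A and at 0 in the other 3 libraries, while Xist, made from the inactive X, was at 164 CPM in CKO A and 1081 CPM in CKO B, against 849 CPM in WT A and 671 CPM in WT B. Fits without each library were therefore made.

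Many of the ATF4 genes were higher in CKO cells and none passed the test as lower. Of 32 members tested, 16 rose in CKO (edgeR's quasi-likelihood test, adjusted p under 0.05), against a background of 4.85% of the 15210 genes tested. No member fell, where 2.75% of all genes did. Both CKO libraries lay above both WT libraries in 28 of the 32, against 27.7% of all tested genes, and both lay below in 0, against 29.3%. The median log2 change of the tested members was 0.57, beside -0.0087 over all tested genes. Slc7a11 was too low to pass the filter with all 4 libraries. Trib3 and Chac1 had so few WT reads that they passed the filter on low counts through their CKO reads, which left them little room but to differ. Of the 30 other tested members 14 rose and 0 fell, with a median log2 change of 0.53. In bulk RNA, more cells of a type and more RNA per cell cannot be told apart.

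**Figure D1:**
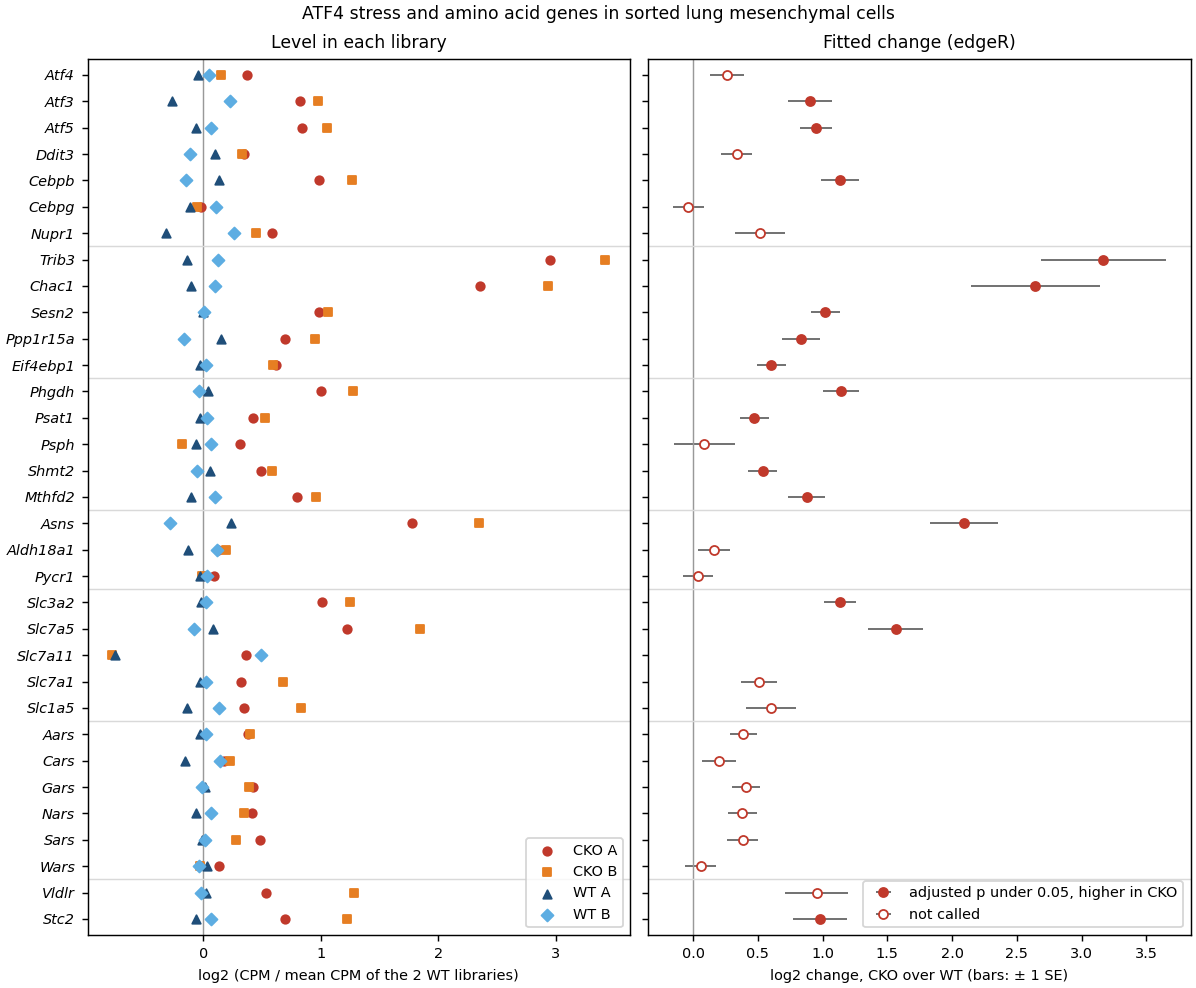
Left, the level of each member in each library as log2 of its CPM over the mean of both WT libraries; right, the fitted log2 change of CKO over WT with 1 SE, filled where the adjusted p was under 0.05. Genes are grouped by role, from transcription factors at the top to the receptor and the secreted protein at the bottom; Trib3, Chac1 and Asns lie farthest to the right and no tRNA synthetase lies above 0.41.

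The size of the rise differed among the 16 called genes, from 1.39-fold for Psat1 to 8.99-fold for Trib3, with a median of 2.00-fold. Trib3, like Chac1, passed the filter through its CKO reads, so its fold and its calls in every fit below rest on few WT reads. The 16 tested members that were not called ran from 0.975-fold for Cebpg to 1.94-fold for Vldlr, and 12 of those 16 still had both CKO libraries above both WT libraries. These 16 are thus not shown to be unchanged. The calls also depended on single libraries. Leaving out WT A gave 9 members called higher, beside 2.31% of all genes in that fit, and leaving out WT B also gave 9, beside 1.56%. Leaving out CKO A gave 19, beside 7.88%, and leaving out CKO B gave 14, beside 3.80%, so the calls over the whole table moved with them. The 7 genes Atf5, Trib3, Asns, Phgdh, Slc3a2, Sesn2 and Cebpb were called with all 4 libraries and in each of the 10 alternative fits.

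ATF4 and C/EBP proteins bind a composite element whose core letters read TTNCATCA on one strand and TGATGNAA on the other, and these letters were searched in RefSeq promoter windows (GRCm38.p6) running from 250 bases before to 50 bases after a gene start. Windows were matched for 27 members. Slc7a5, Slc1a5, Cars, Nars, Wars and Eif4ebp1 had no window in the table. The letters occurred in 10 of the 27 members (37.0%), against 4.51% of the 27025 genes in the promoter table. The members were listed as ATF4 targets and partners, so a share above that of all genes is no independent finding. A match describes the sequence and does not show that a factor binds there. The stretches below are shown because they carry the element in members that rose (Atf3, Chac1, Asns) and in members that did not pass the test or were not tested (Slc7a11, Pycr1, Gars). Each is given 5′ to 3′ on the strand of the gene, and capitals mark the element.
Atf3: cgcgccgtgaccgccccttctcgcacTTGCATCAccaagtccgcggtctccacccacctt
Chac1: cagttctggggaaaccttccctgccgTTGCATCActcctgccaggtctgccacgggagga
Asns: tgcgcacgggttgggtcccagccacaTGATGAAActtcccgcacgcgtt
Slc7a11: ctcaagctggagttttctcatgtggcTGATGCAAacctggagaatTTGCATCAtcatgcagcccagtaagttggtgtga
Pycr1: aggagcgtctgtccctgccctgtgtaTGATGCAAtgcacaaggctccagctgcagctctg
Gars: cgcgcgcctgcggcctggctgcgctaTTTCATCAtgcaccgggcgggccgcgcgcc

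These stretches lie at chr1:191183410-191183469 (minus strand) for Atf3, chr2:119351023-119351082 (plus) for Chac1, chr6:7693210-7693258 (minus) for Asns, chr3:50443627-50443705 (minus) for Slc7a11, chr11:120643818-120643877 (minus) for Pycr1 and chr6:55037945-55038000 (plus) for Gars. The element began 110 bases before the gene start in Atf3, 193 in Chac1, 23 in Asns, 103 in Pycr1 and 30 in Gars. In Slc7a11 there were 2 elements, in opposite orientations, beginning 66 and 47 bases before the start. The letters also occurred in Nupr1, Aars, Vldlr and Trib3, the last as TTACATCA with its first base at position 15 after the start. Calls were found in members with and without the element. Of the 10 with it, 9 were tested and 4 rose, among them Trib3 and Chac1. Of the 17 without it in the window, 17 were tested and 10 rose. Over all tested genes 4.85% rose. The median log2 change was 0.90 in the tested members with the element and 0.54 in those without. Those with it include Trib3 and Chac1 (log2 change 3.17 and 2.64), which passed the filter through their CKO reads. The others with it ran from 0.04 for Pycr1 to 2.09 for Asns, with Nupr1 (0.52) in the middle. The difference between the medians was not tested.

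**Figure D2:**
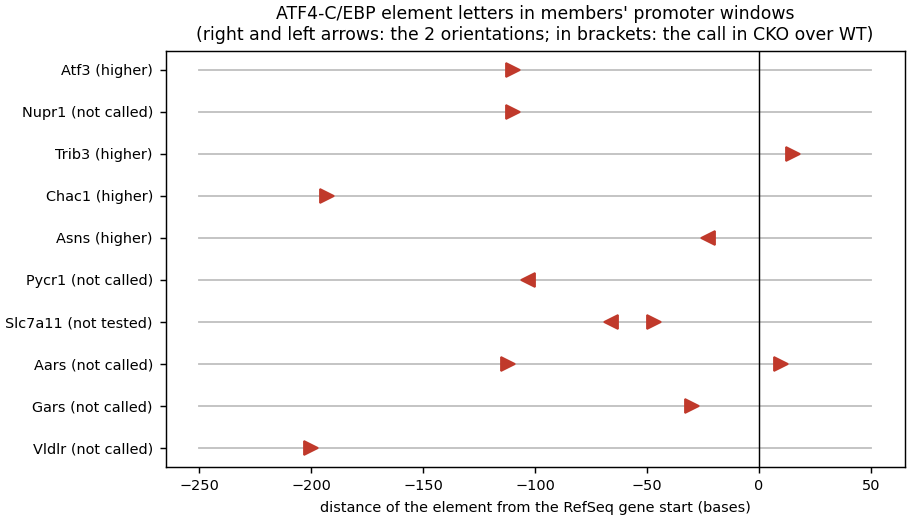
Position of the ATF4-C/EBP element letters in the promoter windows of the 10 members that hold them, as distance in bases from the RefSeq gene start; each grey line is 1 window, and right and left arrows mark the 2 orientations. Most elements lie within 200 bases before the start, those of Trib3 and a second of Aars lie after it, and called and uncalled members are both among them.

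Among the transcription factors and their partners, Atf3, Atf5 and Cebpb rose while the RNA of Atf4 itself did not pass the test. Atf4 (chromosome 15, 80255184 to 80257541, GRCm38) stood at 447 CPM in CKO A and 384 CPM in CKO B, against 335 CPM in WT A and 359 CPM in WT B. The CKO libraries were above the WT libraries by a small margin (1.20-fold, log2 change 0.26 ± 0.13 SE, edgeR adjusted p = 0.248). Atf4 is controlled largely at translation, and its RNA level need not follow its protein.

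Atf5, a factor of the same family that is itself translated better under stress, was at 106 CPM in CKO A and 123 CPM in CKO B, against 56.8 CPM in WT A and 61.9 CPM in WT B. The genotypes were well apart (1.93-fold, edgeR adjusted p = 0.00614). Atf5 overlaps Nup62 on the other strand, and the sources used here do not say whether counting used strand, so reads of overlapping genes may be mixed. Nup62 itself was not called (1.15-fold, edgeR adjusted p = 0.359).

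Cebpb, which encodes a C/EBP partner of ATF4, was at 157 CPM in CKO A and 190 CPM in CKO B, against 86.6 CPM in WT A and 71.3 CPM in WT B. That is 2.19-fold higher (edgeR adjusted p = 0.00583), and the gap between genotypes exceeded the gaps within them. Cebpb overlaps Tmem189 on the other strand, which was not called (1.34-fold, edgeR adjusted p = 0.0750). Atf3, an early stress-induced repressor and activator, was at 87.0 CPM in CKO A and 96.9 CPM in CKO B, against 40.8 CPM in WT A and 57.5 CPM in WT B. Its rise of 1.87-fold (edgeR adjusted p = 0.0231) was no longer called when WT A was left out (adjusted p = 0.0563) or when CKO B was (adjusted p = 0.0750).

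Ddit3, which encodes the pro-apoptotic factor CHOP, differed little. It was at 42.9 CPM in CKO A and 42.2 CPM in CKO B, against 36.2 CPM in WT A and 31.2 CPM in WT B (1.26-fold, edgeR adjusted p = 0.132). The groups did not overlap, but the change did not pass. Ddit3 overlaps Mars on the other strand, and Mars was at 1.13-fold (edgeR adjusted p = 0.385). Nupr1, a small stress-induced chromatin protein, was at 109 CPM in CKO A and 99.2 CPM in CKO B, against 58.0 CPM in WT A and 87.0 CPM in WT B. The WT libraries lay far apart, the change was 1.43-fold (edgeR adjusted p = 0.153), and it was called without WT B only (adjusted p = 0.0405) among the fits that left out 1 library. Cebpg, another dimer partner of ATF4, averaged 47.8 ± 0.70 CPM in CKO and 49.0 ± 5.17 CPM in WT (SD, n = 2 each). Its groups overlapped, and it was the tested member whose log2 change lay below 0 (-0.04 ± 0.12 SE, edgeR adjusted p = 0.887).

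Of the feedback and signalling genes, Sesn2, Ppp1r15a and Eif4ebp1 rose with ample reads in both genotypes, and Trib3 and Chac1 were called on few WT reads. Trib3, a pseudokinase that ATF4 induces and that restrains it, had 49 reads in CKO A and 60 in CKO B, against 5 in WT A and 7 in WT B. It was 8.99-fold higher (log2 change 3.17 ± 0.48 SE, edgeR adjusted p = 0.0103). Chac1, which degrades glutathione, had 38 reads in CKO A and 50 in CKO B, against 6 in WT A and 8 in WT B, and was 6.25-fold higher (edgeR adjusted p = 0.0201). Both genes were scarce in either genotype, at no more than 2.59 CPM for Trib3 and 2.16 CPM for Chac1. The rise of Trib3 kept its call in all 4 fits without 1 library. That of Chac1 was lost without WT A, without WT B and without CKO B (adjusted p = 0.0730, 0.0968 and 0.0853), with log2 changes still between 2.34 and 2.76.

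Sesn2, which restrains mTORC1 when leucine is short and is also a p53 target, was among the steadiest. It was at 58.0 CPM in CKO A and 61.5 CPM in CKO B, against 29.3 CPM in WT A and 29.6 CPM in WT B. Replicates nearly coincided and the genotypes differed 2.03-fold (log2 change 1.02 ± 0.11 SE, edgeR adjusted p = 0.00369). Ppp1r15a encodes GADD34, the phosphatase subunit that reverses eIF2 phosphorylation. It was at 126 CPM in CKO A and 150 CPM in CKO B, against 85.7 CPM in WT A and 69.2 CPM in WT B, a 1.78-fold difference (edgeR adjusted p = 0.0165). The call was lost without WT B (adjusted p = 0.0964).

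Eif4ebp1, a repressor of cap-dependent translation, was at 45.8 CPM in CKO A and 45.2 CPM in CKO B, against 29.4 CPM in WT A and 30.4 CPM in WT B. The rise was 1.52-fold (edgeR adjusted p = 0.0181), with replicates close together in each genotype. It was not called without WT A (adjusted p = 0.129) or without WT B (adjusted p = 0.122), although the log2 change stayed at 0.59 and 0.64.

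In serine and one-carbon synthesis, 4 of 5 enzymes rose with all 4 libraries, beside 4.85% of all tested genes. Phgdh, the entry enzyme of serine synthesis (chromosome 3, 98313170 to 98339990), was at 37.2 CPM in CKO A and 44.7 CPM in CKO B, against 19.1 CPM in WT A and 18.0 CPM in WT B, so that each CKO library lay far above each WT library. It was 2.21-fold higher (log2 change 1.14 ± 0.14 SE, edgeR adjusted p = 0.00441). Psat1, the next enzyme of the route, moved less, with 40.8 CPM in CKO A and 43.7 CPM in CKO B, against 29.9 CPM in WT A and 31.0 CPM in WT B. Its 1.39-fold rise (edgeR adjusted p = 0.0438) was the weakest call and was lost without WT A, without WT B and without CKO B (adjusted p = 0.260, 0.228 and 0.0687).

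Psph, the phosphatase that completes serine, did not pass. It was at 7.31 CPM in CKO A and 5.18 CPM in CKO B, against 5.62 CPM in WT A and 6.15 CPM in WT B, so that the WT values lay between the CKO values (log2 change 0.09 ± 0.24 SE, edgeR adjusted p = 0.858). Psph overlaps Cct6a on the other strand, a chaperonin gene with 2413 to 3464 reads per library that was not called (1.07-fold, edgeR adjusted p = 0.684).

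The mitochondrial one-carbon enzymes that use serine were also higher. Mthfd2, a methylenetetrahydrofolate dehydrogenase, was at 27.7 CPM in CKO A and 31.1 CPM in CKO B, against 14.8 CPM in WT A and 17.1 CPM in WT B (1.84-fold, edgeR adjusted p = 0.0128). Shmt2, which turns serine into glycine, was at 66.6 CPM in CKO A and 71.0 CPM in CKO B, against 49.1 CPM in WT A and 45.6 CPM in WT B (1.45-fold, edgeR adjusted p = 0.0300). Both lost their calls without WT A (adjusted p = 0.0678 for Mthfd2 and 0.0996 for Shmt2) and without WT B (adjusted p = 0.0533 and 0.206). Shmt2 overlaps Ndufa4l2 on the other strand, which was higher too (2.10-fold, edgeR adjusted p = 0.0361). Reads of Ndufa4l2 were few beside those of Shmt2, with 160 in CKO A and 164 in CKO B, against 64 in WT A and 91 in WT B.

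Of the enzymes of asparagine and proline synthesis, Asns rose and the others did not pass. Asns, the asparagine synthetase and a classic ATF4 target (chromosome 6, 7675169 to 7693254), was at 14.1 CPM in CKO A and 21.1 CPM in CKO B, against 4.87 CPM in WT A and 3.39 CPM in WT B. It was 4.26-fold higher (log2 change 2.09 ± 0.27 SE, edgeR adjusted p = 0.00652), the largest rise of any member above 10 CPM in CKO. Pycr1, which makes the last step to proline, was at 32.5 CPM in CKO A and 30.3 CPM in CKO B, against 29.9 CPM in WT A and 31.2 CPM in WT B (1.03-fold, edgeR adjusted p = 0.869). Aldh18a1, which makes the first committed step, averaged 102 ± 3.13 CPM in CKO and 91.4 ± 10.9 CPM in WT (SD, n = 2 each, 1.12-fold, edgeR adjusted p = 0.467). The groups of Pycr1 overlapped and those of Aldh18a1 did not, by a narrow margin.

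Among amino acid transporters the heavy and light chain of the large neutral transporter rose together. Slc3a2, the heavy chain 4F2hc (chromosome 19, 8706882 to 8723369), was at 207 CPM in CKO A and 245 CPM in CKO B, against 102 CPM in WT A and 104 CPM in WT B. It was 2.20-fold higher (log2 change 1.14 ± 0.12 SE, edgeR adjusted p = 0.00369). Slc7a5, the light chain LAT1 that pairs with it, was at 79.2 CPM in CKO A and 122 CPM in CKO B, against 36.0 CPM in WT A and 32.1 CPM in WT B. It was 2.96-fold higher (edgeR adjusted p = 0.0116), with CKO B well above CKO A, and its call was lost without WT B (adjusted p = 0.0830).

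The other light chain, Slc7a11 or xCT, which imports cystine, was nearly silent in these cells, with 10 reads in CKO A and 4 in CKO B, against 4 in WT A and 11 in WT B. The groups overlapped, it was not tested with the filter, and no fold is given. Slc7a1, a carrier of arginine and lysine, was at 61.3 CPM in CKO A and 78.2 CPM in CKO B, against 48.1 CPM in WT A and 49.9 CPM in WT B (1.42-fold, edgeR adjusted p = 0.0673). Slc1a5, the glutamine carrier ASCT2, was at 19.3 CPM in CKO A and 27.0 CPM in CKO B, against 13.8 CPM in WT A and 16.7 CPM in WT B (1.52-fold, edgeR adjusted p = 0.0997). Neither passed with all 4 libraries, and both were called without CKO A (adjusted p = 0.00311 for Slc7a1 and 0.00532 for Slc1a5).

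None of the 6 cytosolic tRNA synthetases passed in edgeR, although 4 of them were higher at an unadjusted p under 0.05, beside 13.1% of all genes, and DESeq2 called 3 (Aars, Gars and Nars), beside 6.50% of all genes. Limma-voom called 0. Gars, which charges glycine, averaged 107 ± 1.77 CPM in CKO and 80.8 ± 0.88 CPM in WT (SD, n = 2 each), a 1.33-fold difference with an edgeR adjusted p of 0.0594. Aars, for alanine, averaged 196 ± 1.72 CPM in CKO and 150 ± 3.68 CPM in WT (1.31-fold, edgeR adjusted p = 0.0663). These gaps between genotypes were many times the gaps within them. Nars, for asparagine, averaged 154 ± 5.51 CPM in CKO and 119 ± 7.39 CPM in WT (1.30-fold, edgeR adjusted p = 0.0795). Sars, for serine, was at 91.1 CPM in CKO A and 78.9 CPM in CKO B, against 64.6 CPM in WT A and 65.6 CPM in WT B (1.31-fold, edgeR adjusted p = 0.0927), and it was called without CKO B (adjusted p = 0.0481).

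Cars, for cysteine, and Wars, for tryptophan, were closer still. Cars averaged 41.5 ± 1.07 CPM in CKO and 36.1 ± 5.20 CPM in WT (1.15-fold, edgeR adjusted p = 0.388). Wars averaged 43.4 ± 3.42 CPM in CKO and 41.8 ± 1.40 CPM in WT (1.04-fold, edgeR adjusted p = 0.802), with overlapping groups. Wars overlaps Wdr25 on the other strand, which had 117 to 138 reads in each library.

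The last 2 members act at the cell surface or outside the cell. Stc2, a secreted stanniocalcin, was at 12.8 CPM in CKO A and 18.4 CPM in CKO B, against 7.55 CPM in WT A and 8.26 CPM in WT B (1.97-fold, edgeR adjusted p = 0.0319). Its call was lost without WT A, without WT B and without CKO B (adjusted p = 0.121, 0.126 and 0.0684). Vldlr, a lipoprotein and reelin receptor, was at 69.3 CPM in CKO A and 116 CPM in CKO B, against 48.5 CPM in WT A and 47.0 CPM in WT B. The fold was close to that of Stc2 (1.94-fold), but the CKO libraries lay apart and edgeR did not call it (adjusted p = 0.0729). Vldlr was called without CKO A (log2 change 1.31) and without CKO B (log2 change 0.55), and by DESeq2.

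**Figure D3:**
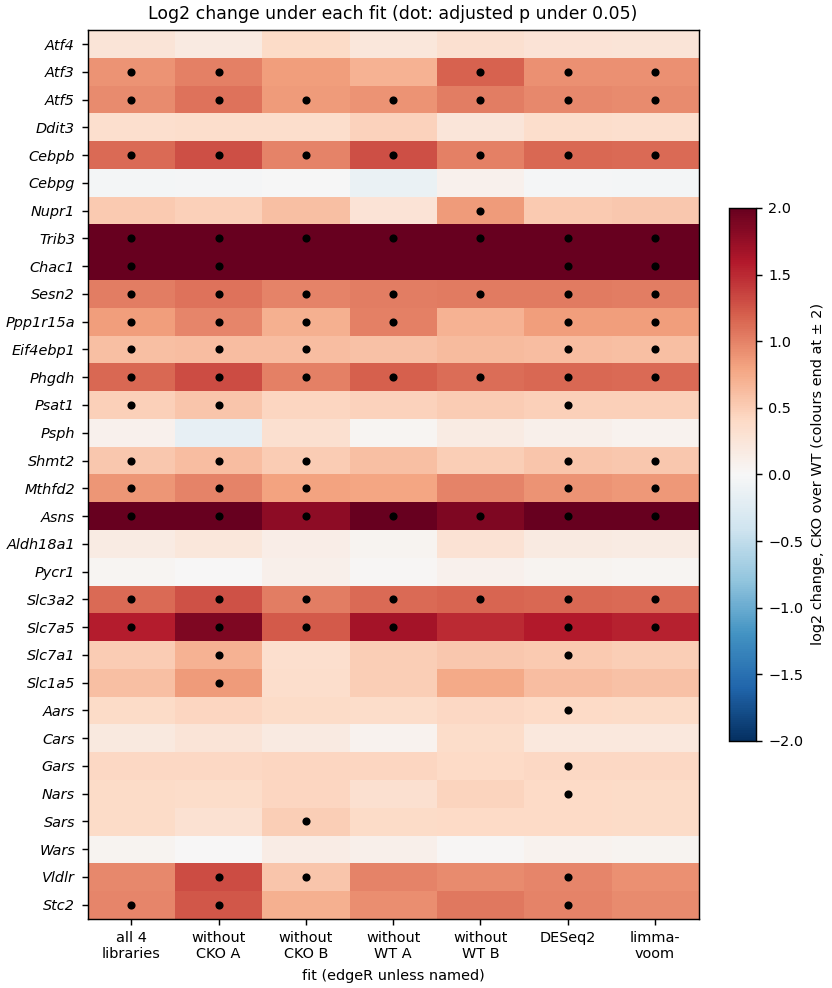
Log2 change of CKO over WT for the 32 tested members (rows) in the fit of all 4 libraries, in edgeR fits that each left out 1 library, in DESeq2 and in limma-voom (columns); dots mark an adjusted p under 0.05. Dots are fewest without WT A and without WT B, and the colours of Vldlr, Nupr1, Slc1a5 and Psph, among others, differ between columns.

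On a scale per gene length, as CPM per kilobase of the deposited gene length, the members spanned a wide range of levels. Cebpb was highest in CKO, at 115 ± 15.5 CPM per kilobase in CKO and 52.5 ± 7.19 in WT (SD, n = 2 each). Atf4 followed, at 94.3 ± 10.1 CPM per kilobase in CKO and 78.6 ± 3.78 in WT, and was the highest member in WT. Atf5 reached 27.6 ± 2.81 CPM per kilobase in CKO and 14.3 ± 0.87 in WT, and Gars 26.8 ± 0.44 in CKO and 20.2 ± 0.22 in WT. In CKO these neighbours did not differ beyond their spread. Asns reached 2.53 ± 0.71 CPM per kilobase in CKO, against 0.596 ± 0.15 in WT, so that even in CKO its level per length lay below those of all 6 tRNA synthetases among the members. Trib3, with the largest fold, had one of the lowest levels, at 0.701 ± 0.16 CPM per kilobase in CKO and 0.0761 ± 0.0099 in WT. Slc7a11 was lowest, at 0.0154 ± 0.0082 CPM per kilobase in CKO and 0.0164 ± 0.0094 in WT.

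The 2 CKO libraries did not differ from WT to the same degree. Among the 16 members called higher, 15 were higher in CKO B than in CKO A, with CKO B over CKO A ratios of 0.987 for Eif4ebp1 to 1.54 for Slc7a5 and a median of 1.19. The 16 were picked by their call in these same libraries, and no such count is given for all genes called higher. Of all 32 tested members 21 were higher in CKO B, and of all 15210 tested genes 7601 were. In lists described below, so were 17 of 19 further ATF4 targets, 16 of 19 other transporters, 20 of 22 dissociation genes and 13 of 17 p53 targets. So were 10 of 20 ER chaperones and related targets, 11 of 23 mTORC1 genes and 6 of 16 upstream genes. For the rest it was 5 of 14 other cytosolic and 6 of 17 mitochondrial synthetases, 6 of 14 other serine to proline enzymes and 5 of 13 mitochondrial chaperones. The largest ratio among tested members was 1.67, for Vldlr, and the smallest 0.708, for Psph. Asns (1.49), Chac1 (1.49), Stc2 (1.44) and Trib3 (1.39) were at the upper end, while the ratio was under 1 for Atf4 (0.859), Sars (0.866), Wars (0.894) and Nupr1 (0.913). CKO B was also the library with less Dnmt1 RNA, and the other CKO library was the one with Y-linked reads. With 1 library of each kind these differences cannot be told apart from each other.

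**Figure D4:**
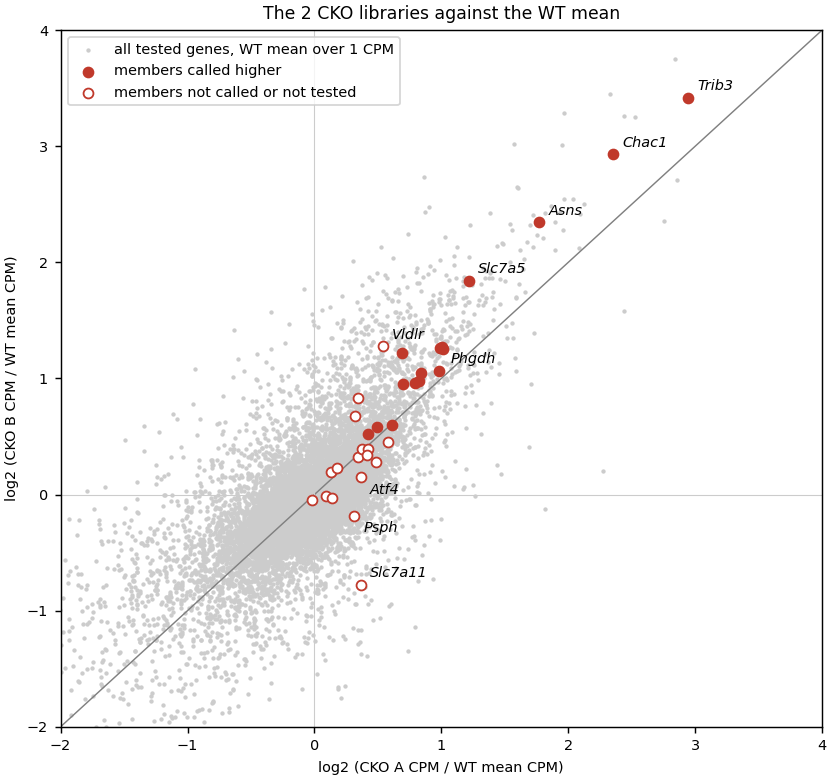
Log2 ratio to the WT mean in CKO A (horizontal axis) and CKO B (vertical axis) for the members (red) and for all tested genes with a WT mean above 1 CPM (grey); filled points are members called higher, the diagonal marks equal ratios, and both axes end at -2 and 4. Called members lie in the upper right, 15 of the 16 above the diagonal.

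Of 16 kinases, eIF2 and eIF2B subunits and regulators upstream of ATF4, 1 rose and 0 fell, a share near that of all genes (4.85% higher). Both CKO libraries lay above both WT libraries in 7 of the 16 and below in 1, beside 27.7% and 29.3% of all genes. The one called was Impact, an imprinted inhibitor of GCN2 activation, at 35.3 CPM in CKO A and 42.9 CPM in CKO B, against 27.9 CPM in WT A and 24.1 CPM in WT B (1.50-fold, edgeR adjusted p = 0.0449). The call was lost without WT A, WT B or CKO B, in limma-voom, with RLE size factors and with the filter on mean CPM. Eif2ak4, which encodes GCN2, the kinase that senses uncharged tRNA, averaged 20.6 ± 1.28 CPM in CKO and 26.1 ± 0.87 CPM in WT (SD, n = 2 each, log2 change -0.34 ± 0.13 SE, edgeR adjusted p = 0.149). Eif2ak3, which encodes the ER kinase PERK, averaged 37.9 ± 0.38 CPM in CKO and 31.1 ± 0.17 CPM in WT (1.22-fold, edgeR adjusted p = 0.152). Eif2ak1, for the heme-regulated kinase HRI, was at 1.25-fold (edgeR adjusted p = 0.137). Eif2ak2, for PKR, was at 1.28-fold (edgeR adjusted p = 0.206).

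Of 19 further ATF4 targets outside the 33, 17 were tested, 6 rose and 0 fell, beside 4.85% of all genes higher and 2.75% lower. Their median log2 change was 0.31, beside -0.0087 over all tested genes. Gdf15, a stress-induced cytokine that p53 also induces, was at 8.15 CPM in CKO A and 14.4 CPM in CKO B, against 1.45 CPM in WT A and 1.55 CPM in WT B (7.48-fold, edgeR adjusted p = 0.00382). Ddit4, an inhibitor of mTORC1, averaged 38.3 ± 5.19 CPM in CKO and 15.0 ± 0.43 CPM in WT (2.56-fold, edgeR adjusted p = 0.00340). Aldh1l2, a mitochondrial formyltetrahydrofolate dehydrogenase, was 2.68-fold higher, and Gpt2, a mitochondrial alanine transaminase, 2.08-fold (edgeR adjusted p = 0.0129 and 0.0181). The autophagy receptor Sqstm1 (1.54-fold) and the ER protein gene Herpud1 (1.44-fold) made up the 6. Xpot, the tRNA exporter, and Slc38a2, a neutral amino acid carrier, had log2 changes of -0.03 and 0.08 and were not called. Slc7a3, a carrier of basic amino acids near the limit of detection, lay lower in both CKO libraries (log2 change -1.44, edgeR adjusted p = 0.179). Leaving out WT A gave 4 calls and leaving out WT B gave 2, in fits that called fewer genes throughout.

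For genes of the same classes outside the 33, shares at an unadjusted p under 0.05 stand beside 13.1% of all genes higher and 12.1% lower. Of 14 other cytosolic tRNA synthetases 0 passed in edgeR, DESeq2 and limma-voom, with 1, Tars, higher at an unadjusted p under 0.05 and a median log2 change of 0.16. Of 17 mitochondrial synthetases 0 passed in the same 3 tools, with 2, Cars2 and Hars2, lower at an unadjusted p under 0.05 and a median of -0.07. These counts of calls and of unadjusted p are at or near the shares over all genes. Both CKO libraries lay above both WT libraries in 8 of the 14 other cytosolic synthetases and below in 1. For the 17 mitochondrial synthetases it was 2 above and 6 below, beside 27.7% and 29.3% of all genes. Lars2, of the mitochondrial list, was at 342 CPM in WT B and at 65.3 to 77.0 CPM in the other 3 libraries. Of 14 other serine, glycine, one-carbon and proline enzymes 0 passed in these tools, with 1 higher (Oat) and 3 lower at an unadjusted p under 0.05. The lower ones were Gldc of the glycine cleavage system (1.01 ± 0.032 CPM in CKO and 2.64 ± 0.053 CPM in WT, edgeR adjusted p = 0.0503), Mthfd2l, a paralog of Mthfd2 (log2 change -0.58, edgeR adjusted p = 0.0653), and the serine racemase gene Srr (log2 change -0.41, edgeR adjusted p = 0.133). Of 15 other amino acid transporters tested, 0 rose and 1 fell, beside 4.85% of all genes higher and 2.75% lower. The fall was that of Slc38a9, a lysosomal arginine sensor of mTORC1 (7.85 ± 0.18 CPM in CKO and 13.5 ± 1.56 CPM in WT, edgeR adjusted p = 0.0351). The call of Slc38a9 was lost without WT A, without WT B and without CKO B. DESeq2 called 4 of these transporters higher and 1 lower, beside 6.50% and 3.72% of all genes. In edgeR 4 were higher and 2 lower at an unadjusted p under 0.05, with a median log2 change of 0.30. Both CKO libraries lay above both WT libraries in 8 of the 15, beside 27.7% of all genes, and below in 2, beside 29.3%. Slc43a2 and Slc7a2, carriers of large neutral and of basic amino acids, had the next lowest p (log2 change 1.38 and 0.79, edgeR adjusted p = 0.0512 and 0.0578). The differences between these lists and the 33 members were not tested.

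Of 20 ER chaperones and XBP1 or ATF6 targets, of the neighbouring unfolded protein response, 3 rose (Dnajb9 1.56-fold, Creld2 1.50-fold and Dnajb11 1.37-fold) and 0 fell, beside 4.85% of all genes higher. Both CKO libraries lay above both WT libraries in 15 of the 20, beside 27.7% of all genes, 9 were higher at an unadjusted p under 0.05, beside 13.1%, and the median log2 change was 0.27. Leaving out WT A or WT B gave 0 calls, and DESeq2 made 6. Of 13 mitochondrial chaperones and proteases 0 passed in edgeR and limma-voom and 1 in DESeq2. Hspa9 (1.32-fold, edgeR adjusted p = 0.0613), Hspe1 and Dnaja3 were the 3 that were higher at an unadjusted p under 0.05. Both CKO libraries lay above both WT libraries in 7 of the 13 and below in 0. Of 23 genes of mTORC1 amino acid sensing 0 passed in edgeR, DESeq2 and limma-voom, with 1 higher (Rraga) and 1 lower (Rptor) at an unadjusted p under 0.05.

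**Figure D5:**
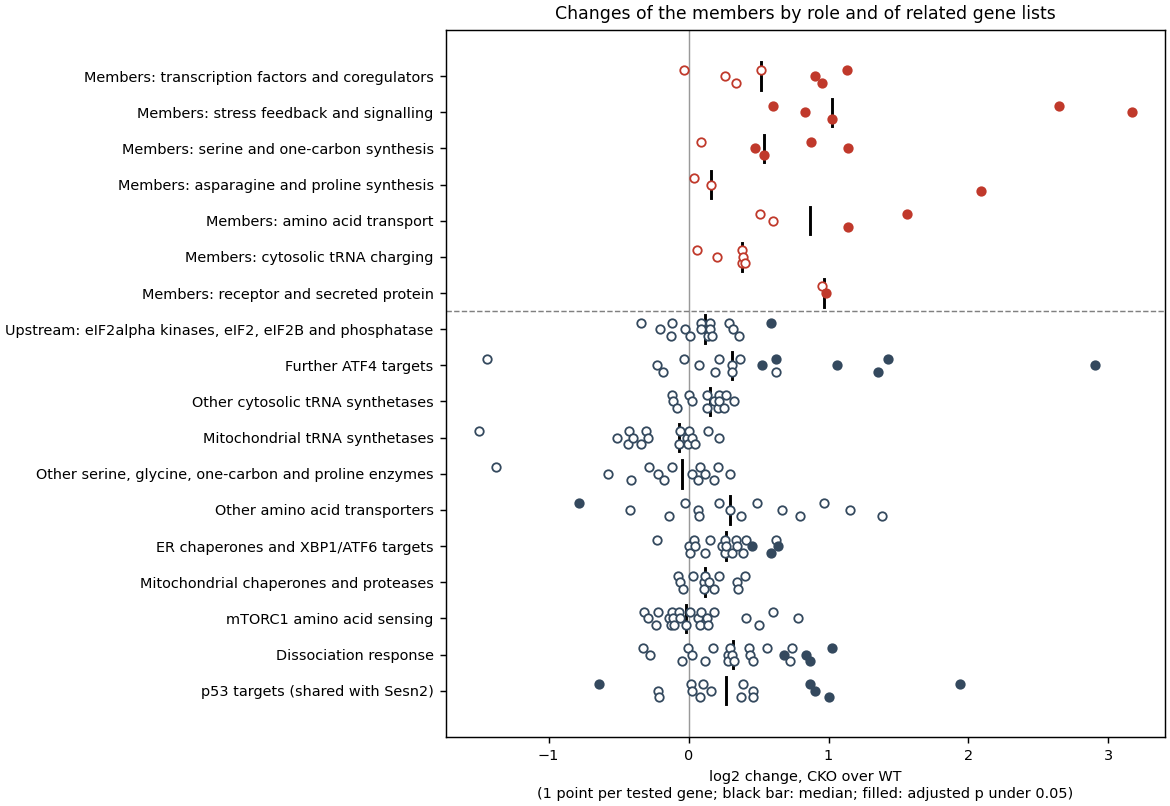
Log2 change of CKO over WT for every tested gene of the members by role (red, above the dashed line) and of the other lists (dark, below it); filled points have an adjusted p under 0.05 and black bars are medians. Members for feedback and for amino acid transport have medians of 1.02 and 0.87, and the mitochondrial synthetases and mTORC1 sensing genes centre near 0. The feedback median includes Trib3 and Chac1, which passed the filter through their CKO reads.

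Other signals moved with the ATF4 genes. Counts with all 4 libraries here stand beside 4.85% of all tested genes higher and 2.75% lower. Of 22 genes that tissue dissociation is known to induce, 4 rose (Ier3 2.03-fold, Klf4 1.79-fold, Klf2 1.61-fold and Nr4a1 1.83-fold) and 0 fell. At an unadjusted p under 0.05, 12 were higher and 0 lower, beside 13.1% and 12.1% of all genes. Both CKO libraries lay above both WT libraries in 13 and below in 0, beside 27.7% and 29.3%. The median log2 change of the 22 dissociation genes was 0.32. Their summed levels were 6598 CPM in CKO A and 8525 CPM in CKO B, against 6413 CPM in WT A and 5402 CPM in WT B. The count was 2 when WT B was left out (1.56% of all genes in that fit), 10 when CKO A was (7.88%), and 8 in DESeq2 (6.50%). Atf3, Cebpb and Ppp1r15a are known to respond to dissociation too. Of 16 p53 targets tested 4 rose (Cdkn1a 3.84-fold, Eda2r 2.00-fold, Bbc3 1.87-fold and Ccng1 1.83-fold) and 1, Plk2, fell. Fewer p53 targets rose, and Plk2 was no longer called, when WT A or WT B was left out, in fits that called fewer genes throughout.

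Markers of other cells were low beside those of the mesenchyme. Calls here stand beside 4.85% of all tested genes higher and 2.75% lower, and in DESeq2 beside 6.50% and 3.72%. At an unadjusted p under 0.05 the shares were 13.1% higher and 12.1% lower. The shares of all genes called higher in fits without 1 library are given above. Mesenchymal markers summed to 73988 CPM in CKO A and 80292 CPM in CKO B, against 66843 CPM in WT A and 67197 CPM in WT B, with all 12 detected in every library. Of these 12, 1 rose (Cnn1, not called when either WT library was left out) and 0 fell, while DESeq2 and the fit without CKO A each called 3 higher and 4 lower. Both CKO libraries lay below both WT libraries for 5 of them (Pdgfrb, Pdgfra, Myh11, Tgfbi and Tbx4) and above for 4. Over all tested genes the shares were 29.3% below and 27.7% above. Pdgfrb, the reporter gene, was at 374 CPM in CKO A and 317 CPM in CKO B, against 507 CPM in WT A and 477 CPM in WT B (edgeR adjusted p = 0.0546). Immune markers were scarce, with sums over 12 markers of 82.0 CPM in CKO A and 55.7 CPM in CKO B, against 36.4 CPM in WT A and 48.1 CPM in WT B. Of 10 tested, 5 rose (Cd74, Fcer1g, Cd14, Laptm5 and Csf1r), and 1 marker was called when WT A or WT B was left out. Cd68 and Cd79a were lower in both CKO libraries than in both WT libraries without passing. Adventitial fibroblast markers rose in 5 of 7 (Pi16, Igfbp6, Serpinf1, Dpt and Clec3b), with sums of 1001 CPM in CKO A and 1523 CPM in CKO B, against 812 CPM in WT A and 868 CPM in WT B. Leaving out either WT library gave 2 adventitial calls. Endothelial sums ranged from 96.9 to 177 CPM in CKO and from 84.2 to 124 CPM in WT, and epithelial sums from 78.8 to 144 CPM in CKO and from 59.0 to 179 CPM in WT. Of these 2 lists 0 genes were called by edgeR, DESeq2 or limma-voom, with 1, Tek, higher at an unadjusted p under 0.05. Pericyte markers gave 0 calls in the same 3 tools, with 1 higher (Kcnj8) and 1 lower (Higd1b) at an unadjusted p under 0.05, and sums of 367 CPM in CKO A and 488 CPM in CKO B, against 375 CPM in WT A and 325 CPM in WT B. Of 5 erythroid markers tested 2 fell (Hba-a1 and Hba-a2), with Hba-a1 at 2.09 CPM in CKO A and 1.21 CPM in CKO B, against 4.08 CPM in WT A and 5.70 CPM in WT B. These falls numbered 1 without WT A, 0 without WT B and 0 without CKO B. The part of these signals in the ATF4 result was not tested.

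Of the 33 members, 16 are higher in the authors' deposited table at an adjusted p under 0.05, and 0 are lower. Of those, 15 were also called here. The authors' deposited table calls Vldlr (log2 fold change 0.99, adjusted p = 0.00185) and not Psat1 (log2 fold change 0.51, adjusted p = 0.0543), the reverse of the calls above.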

How the data were processed

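RNA was sequenced from 2 CKO and 2 WT samples of Pdgfrb-GFP sorted cells. The authors deposited whole-number read counts per gene, a log2 fold change of mutant over control, its adjusted p-value and a gene length in bases, per the file headers. A further 4 columns of values per sample were not used. Per the submitters' processing notes, the tools were STAR, Trimmomatic 0.36, cutadapt 2.5, FastQC 0.11.8 and edgeR 3.28.1, and the build was GRCm38.p6. The sources used here do not name the counting tool or its strand setting. The columns named Control and Mutant were read as WT and CKO.

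The whole table was fitted in R 4.3.3 with edgeR 4.0.16: filterByExpr with a minimum count of 10, TMM scaling, and glmQLFit and glmQLFTest with robust estimation. P-values were adjusted over 15210 genes by the Benjamini-Hochberg method, and called at 0.05. The SE of a log2 change was its size over the square root of F. CPM values use the TMM-scaled library sizes, and were divided by the deposited length for levels per kilobase. DESeq2 1.42.0, limma-voom (limma 3.58.1), other scalings, other filters and fits without each library were alternatives, and the scripts were checked on simulated counts. Gene positions are from GENCODE M21 on GRCm38 and promoter windows from RefSeq on GRCm38.p6. The members and gene lists were chosen with earlier results of these data known. All 33 members are named. Members that were called, Atf4, Ddit3, Psph, Pycr1, Slc7a11 and members whose call changed in fits without 1 library have values per library. Cebpg, Aldh18a1, Aars, Gars, Nars, Cars and Wars have a mean and SD. Of each other list up to 3 genes with the lowest p are named, or every called gene where 5 or fewer were called. Genes overlapping a member, Xpot, Slc38a2, Slc7a3, Sqstm1, Herpud1, Gpt2, Lars2, Ddx3y, Xist and the kinases were named after their values were seen. Depth of 23071657 to 26420648 reads leaves members with few reads, such as Trib3, Chac1 and Slc7a11, the least precise. The labels do not tell whether the samples came from separate litters, so the p-values reflect spread among these 4 libraries, which may be technical.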

Additional observations from a re-analysis of the deposited data

How the results depend on the processing

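The number of members called higher was 9 to 19 in the fits without 1 library, where 1.56% to 7.88% of all genes were called higher, against 16 with all 4 libraries, and stood at 9 without WT A and 9 without WT B, where 1 WT library is assumed to vary like the CKO pair. In the other 6 settings, with 3.73% to 6.50% of all genes called higher, it was 14 (limma-voom), 15 (library size alone), 16 (RLE size factors), 16 (mean CPM of at least 1), 21 (DESeq2) and 24 (no filter on low counts, where all 33 members were tested). No setting called a member lower. The median log2 change of the tested members was 0.494 to 0.665 in the fits without 1 library. Slc7a11 was among the tested members in each of these fits except that without WT B. In the fits without 1 library the other lists gave 0 to 1 higher calls for upstream genes, 2 to 7 for further ATF4 targets, 0 to 6 for other transporters, 0 to 3 for ER chaperones, 0 to 1 for mTORC1 sensing, 2 to 10 for dissociation and 1 to 6 for p53, and 0 to 1 lower calls for mitochondrial synthetases, other transporters and p53. DESeq2 gave 4, 6, 1 and 8 higher calls for transporters, ER chaperones, mitochondrial chaperones and dissociation. The share of members whose promoter window holds the shorter core TGATGNA was 48.1%, against 13.8% of all genes in the promoter table. No change of sign occurred for a called member in any setting. No paired analysis was possible because the count columns carry no replicate numbers. Depth limits members with few reads, such as Trib3, Chac1 and Slc7a11.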
